A study of Mus musculus with 40 samples.

Results

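The lung lineage transcription factors described here were 9 genes: Nkx2-1, Foxa1, Foxa2, Gata6, Foxp1, Irx2, Elf3, Grhl2 and Cebpa. They were chosen by name, as regulators of lung epithelium, with earlier results of these data known, so counts of called members are descriptions. Each was found in all 5 deposited tables among 55260 genes common to them. Values were in TPM, a gene's share of all transcripts corrected for transcript length, so that levels of different genes can be compared. The study modelled branching of the embryonic mouse lung in organoids, in 40 bulk RNA-seq libraries.

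The organoids of the first experiment (n = 10) carried a start stage and a culture day in their names: E9.5 at day 13, E10.5 at days 11, 18 and 32, E11.5 at day 11, E13.5 at days 11, 19 and 30, and E14 at days 11 and 24. They were set against embryonic lung tips, 1 library for each stage between E10.5 and E13.5 in steps of a day (n = 4). Organoid pieces gave 8 libraries, beside 1 intact organoid. The LO cultures gave 1 library each for day 8, day 11, day 18 and day 11 with DCI. The additions 2C+F10, 2C+MTG and 2C+VC and an ALL library without a replicate number had 1 library each, beside 1 of 2C. ALL-FGF10, ALL-MTG and ALL-VC had 2 libraries each, beside 2 of ALL. The labels define none of LO, DCI, 2C, F10, MTG, VC or ALL. Reading a minus sign as an omission, a plus sign as an addition and the E number as the stage of the starting tip is an assumption. The labels give no mouse strain, genetic change, dose or medium, and do not say whether libraries came from separate animals or cultures, so p-values measure the spread between libraries, which may be technical.

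NKX2-1, a homeodomain protein, marks the lung field of the foregut and binds the promoters of surfactant genes. FOXA1 and FOXA2 are forkhead proteins that open chromatin in endoderm, GATA6 is a zinc finger protein of endoderm and of other germ layers, and FOXP1 is a forkhead repressor. IRX2 is an Iroquois homeodomain protein of the branching epithelium. ELF3 is an epithelial ETS factor, GRHL2 a grainyhead protein that maintains epithelial junction genes, and CEBPA a basic leucine zipper protein of maturing alveolar type II cells, the cells that make surfactant.

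The libraries differed in ways that run alongside the groups. Summed TPM of 10 epithelial markers was 2083.02 to 2616.61 in organoids and 1659.73 to 2209.79 in tips, so epithelial markers were high in both. Blood and immune markers (8 genes) summed to 1.57 to 8.6 TPM in organoids and 744.39 to 2825.48 TPM in tips. Endothelial markers (7 genes) summed to 0.17 to 0.69 TPM in organoids, where all 7 were under 1 TPM in every library, and to 6.69 to 29.78 TPM in tips. Mesenchymal markers (12 genes) summed to 8.77 to 328.14 TPM in organoids, where Twist2 stayed under 1 TPM, and to 131.67 to 296.25 TPM in tips. These ranges overlap, but the median sum was 19.2 TPM in organoids and 152.45 TPM in tips. Mesothelial markers (4 genes) summed to 0.49 to 12.06 TPM in organoids and 3.05 to 8.87 TPM in tips, and neural markers (5 genes) to 0 to 1 TPM in organoids and 3.3 to 9.09 TPM in tips. Mitochondrial transcripts took 11.3 to 15.2% of TPM in organoids and 6.54 to 8.29% in tips. Of genes of 100 to 150 nt, 31 to 75 were listed above 0 in organoids and 0 in all 4 tips. The part of these differences in the results below was not tested. In bulk libraries, fewer cells of a type and less RNA per cell cannot be told apart.

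All 9 factors were present in all 40 libraries, the lowest value being 8.78 TPM for Elf3 in the E10.5 tip. Nkx2-1 was the most abundant of them in 38 of 40 libraries and the steadiest, at 229.48 to 475.82 TPM, a 2.07-fold range. Cebpa was the least steady, at 10.15 to 241.67 TPM, a 23.8-fold range, followed by Elf3 with a 7.16-fold range. The other 6 members spanned 2.70-fold for Gata6 to 4.35-fold for Foxa1. Within the 10 organoids Nkx2-1 was not the steadiest. Its SD there was 23.9% of its mean, a share that ran from 9.35% for Grhl2 to 44.7% for Cebpa. Levels set side by side from different tables were normalized separately and were not tested.

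The order of levels was Nkx2-1, Irx2, Cebpa, Gata6, Foxa2, Foxa1, Foxp1, Grhl2 and Elf3 in organoids. In tips it was Nkx2-1, Irx2, Foxa2, Foxa1, Gata6, Foxp1, Grhl2, Cebpa and Elf3. In organoids every pair of neighbours in that order overlapped over the 10 libraries, although Nkx2-1 was above Irx2 within each library. In tips only the neighbours Gata6 and Foxp1, and Cebpa and Elf3, overlapped over the 4 libraries. Cebpa was above Foxa2 in 9 of 10 organoids and in 0 of 4 tips.

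**Figure D1:**
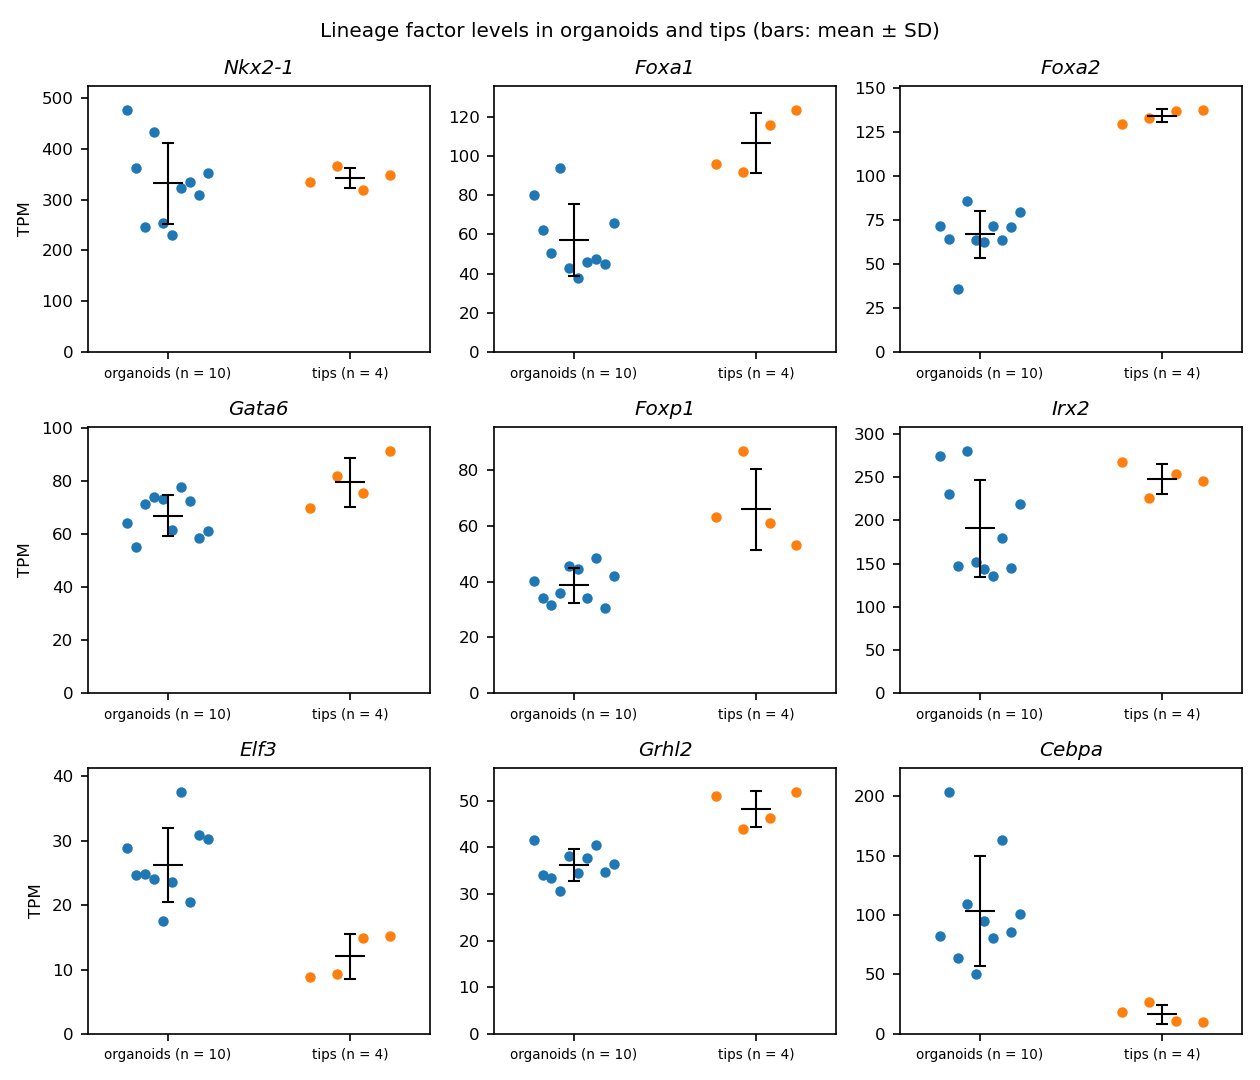
Levels of the 9 factors in TPM (vertical axes, each starting at 0) in 10 organoids and 4 tips; each point is 1 library and the bars give mean ± SD. Cebpa and Elf3 lie higher in all organoids than in any tip, Foxa2, Foxp1 and Grhl2 lie lower, and Nkx2-1 overlaps.

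Organoids were first set against tips, which asks how the factors stood in culture relative to the tissue of origin. Organoids had also had more time since their starting stage, so culture and age cannot be told apart. No library here repeats the stage and culture day of another, so the spread within groups includes differences of stage and culture day. Cebpa and Elf3 were higher in organoids and Foxa1, Foxa2 and Foxp1 were lower, and all 5 kept call and direction under median-ratio rescaling. Grhl2 and Gata6 were lower in deposited TPM, but after rescaling neither passed and Gata6 changed sign. Irx2 and Nkx2-1 did not pass the test. Of the 9 members 7 (2 higher, 5 lower) were called at an adjusted p under 0.05 (limma with Benjamini-Hochberg adjustment over all genes), against a background of 61.9% of 16779 genes tested. The median change over all genes was -0.20 on the log2(TPM + 1) scale, and over the members -0.41. Calls over all genes split into 3640 higher and 6752 lower. Median-ratio rescaling of the TPM, which centres the typical gene, moved the all-gene median to 0.07 and the split to 5164 higher and 5131 lower. In 5 members organoids and tips did not overlap. How many of all genes did so was not counted, so the 5 cannot be read as a trait of the members.

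Cebpa, on chr7:35119293-35121928 (GRCm38, as are all coordinates here), had 50.06, 90.2 and 203.26 TPM (lowest, median, highest) in organoids, against 18.52, 26.62, 10.48 and 10.15 TPM in the tips, from the youngest to the oldest. The lowest organoid was above the highest tip. The difference was 2.58 ± 0.32 (log2, SE, adjusted p = 4.01e-06 by limma), the largest among the members.

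Elf3, on chr1:135253575-135258568, had 17.47, 24.7 and 37.53 TPM (lowest, median, highest) in organoids, against 8.78, 9.27, 14.82 and 15.26 TPM in tips. Organoids and tips did not overlap, though the lowest organoid, E13.5 at day 11, was close to the oldest tip. The difference was 1.08 ± 0.19 (log2, SE, adjusted p = 0.000112 by limma).

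Foxa2, on chr2:148042877-148046969, had 35.81, 67.4 and 85.35 TPM (lowest, median, highest) in organoids, against 129.28, 132.93, 136.86 and 137.15 TPM in tips. All organoids lay below all tips, and the tips differed little from each other. The difference was -1.03 ± 0.16 (log2, SE, adjusted p = 4.17e-05 by limma).

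Foxa1, on chr12:57540628-57546916, had 37.53, 49.1 and 94.00 TPM (lowest, median, highest) in organoids, against 95.90, 91.73, 115.73 and 123.33 TPM in tips. The E11.5 organoid at day 11, at 94.00 TPM, reached into the range of the tips and the other organoids did not. The difference was -0.94 ± 0.20 (log2, SE, adjusted p = 0.000901 by limma).

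Foxp1, on chr6:98925338-99522721, had 30.40, 38.1 and 48.55 TPM (lowest, median, highest) in organoids, against 63.26, 86.86, 60.94 and 53.07 TPM in tips. No organoid reached the lowest tip. The difference was -0.75 ± 0.14 (log2, SE, adjusted p = 0.000255 by limma).

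Grhl2, on chr15:37233036-37363569, had 30.68, 35.6 and 41.62 TPM (lowest, median, highest) in organoids, against 51.06, 43.87, 46.27 and 51.81 TPM in tips. The groups did not overlap, and the difference was -0.41 ± 0.09 (log2, SE, adjusted p = 0.000817 by limma). Under median-ratio rescaling Grhl2 differed by -0.08 (adjusted p = 0.395 by limma), and the 95% interval of deposited TPM was -0.59 to -0.22.

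Gata6 had 55.20, 67.8 and 77.84 TPM (lowest, median, highest) in organoids, against 69.69, 81.96, 75.62 and 91.32 TPM in tips. The groups overlapped, and the difference of -0.25 ± 0.10 (log2, SE) passed narrowly (adjusted p = 0.0434 by limma). The call was lost without the tip of E11.5, E12.5 or E13.5, or without any of 5 organoids (E9.5 at day 13, E10.5 at day 11, E10.5 at day 18, E13.5 at day 19, E14 at day 24), with adjusted p of 0.0583 to 0.169 by limma. Rescaling turned its sign, at 0.08 (adjusted p = 0.515 by limma).

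Irx2, on chr13:72628820-72634198, had 135.29, 165.8 and 280.36 TPM (lowest, median, highest) in organoids, against 267.35, 226.34, 254.00 and 245.73 TPM in tips. Organoids lay on both sides of the tips, and the difference of -0.43 ± 0.19 (log2, SE) missed the threshold (adjusted p = 0.0631 by limma). Leaving out the E10.5 organoid at day 11 gave -0.49 (adjusted p = 0.0247 by limma), and leaving out the E11.5 organoid at day 11 gave -0.50 (adjusted p = 0.0222 by limma).

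Nkx2-1, on chr12:56531958-56536908, had 229.48, 328.0 and 475.82 TPM (lowest, median, highest) in organoids, against 334.23, 365.11, 319.11 and 347.51 TPM in tips. The organoids spread around the tips on both sides. The difference was -0.08 ± 0.16 (log2, SE, 95% interval -0.42 to 0.27, adjusted p = 0.697 by limma), and the interval leaves out differences of the size seen in Elf3 or Foxa2.

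**Figure D2:**
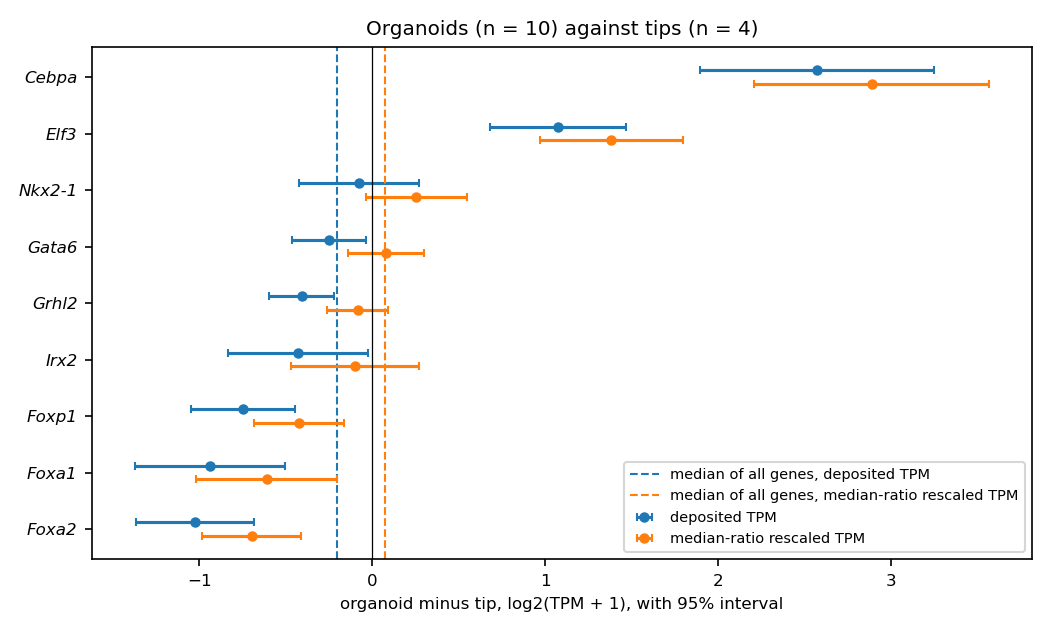
Difference of each factor between 10 organoids and 4 tips in log2(TPM + 1) (horizontal axis; points with 95% intervals), from deposited and from median-ratio rescaled TPM; dashed lines mark the median of all genes. Cebpa and Elf3 lie to the right and Foxa2, Foxa1 and Foxp1 to the left of the median in both, while Gata6 and Grhl2 lie near it after rescaling.

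Set against the tip of the same stage, 7 organoids gave 7 pairs, in which organoids share a tip. Cebpa was higher in 7 of 7 organoids, by 1.73 to 3.39 (log2), and Elf3 was higher in 7 of 7, by 0.18 to 1.61. Foxa2, Foxp1 and Grhl2 were lower in 7 of 7, and Foxa1 and Gata6 in 6 of 7. The pairs were taken in deposited TPM and were not rescaled, and rescaling removed the calls of Grhl2 and Gata6 above. Nkx2-1 was higher in 3 of the 7 pairs and lower in the other 4. With only the 5 organoids grown for 11 to 13 days, Gata6 was not called (-0.20, adjusted p = 0.0980 by limma). Cebpa differed by 2.56, Elf3 by 0.97, Foxa2 by -0.88, Foxa1 by -0.74, Foxp1 by -0.61 and Grhl2 by -0.36. All 6 were called, in a fit that called 9564 of 16003 genes.

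The strand used in counting is not given in the sources used here, and annotated antisense genes overlap Nkx2-1 (Gm26973), Gata6 (1010001N08Rik), Elf3 (Gm26642), Grhl2 (Gm16136, Gm16137, Gm16138) and Cebpa (Gm45091). If the counting ignored strand, reads from stretches that both genes of a pair cover could not be told apart. Overlap was taken over whole genes and not over exons, and its part in the values was not tested. Foxp1 overlaps 4 annotated genes on its own strand, and Foxa1, Foxa2 and Irx2 overlap no other annotated gene.

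Promoter sequence is shown for the members with the largest changes in each direction, Cebpa and Elf3 (higher in organoids) and Foxa1 and Foxa2 (lower), so that their start sites can be read beside motifs bound by members of the same families. The windows are the 250 bases upstream of a RefSeq start on GRCm38.p6, without bases that GENCODE annotates as exon (96 for Elf3 and 10 for Foxa1). For Foxa2, which has 3 starts in the table, the most upstream is given. RefSeq promoters matched 7 of the 9 members, without Gata6 and Grhl2. Capitals mark matches to the motifs listed after the sequences.
Cebpa, chr7:35119043-35119292, plus strand: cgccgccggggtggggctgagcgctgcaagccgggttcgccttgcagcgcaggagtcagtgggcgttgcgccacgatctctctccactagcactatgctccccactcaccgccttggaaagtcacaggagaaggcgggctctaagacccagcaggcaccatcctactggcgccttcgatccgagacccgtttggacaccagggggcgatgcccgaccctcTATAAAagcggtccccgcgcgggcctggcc
Elf3, chr1:135258569-135258722, minus strand: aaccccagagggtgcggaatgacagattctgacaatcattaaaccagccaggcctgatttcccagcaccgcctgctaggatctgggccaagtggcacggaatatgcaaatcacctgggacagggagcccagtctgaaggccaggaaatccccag
Foxa1, chr12:57546122-57546361, minus strand: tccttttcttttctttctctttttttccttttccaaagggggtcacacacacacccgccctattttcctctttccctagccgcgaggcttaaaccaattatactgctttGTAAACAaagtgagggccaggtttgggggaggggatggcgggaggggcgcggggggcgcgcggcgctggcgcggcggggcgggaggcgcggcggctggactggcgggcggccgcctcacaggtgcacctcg
Foxa2, chr2:148046970-148047219, minus strand: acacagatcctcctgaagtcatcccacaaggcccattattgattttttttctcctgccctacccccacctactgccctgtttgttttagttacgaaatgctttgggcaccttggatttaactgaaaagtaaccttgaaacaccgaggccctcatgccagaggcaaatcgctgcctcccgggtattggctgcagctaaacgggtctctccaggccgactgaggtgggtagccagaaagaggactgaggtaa

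Motifs were searched on both strands of the full 250 bases. The forkhead motif TGTTTNC is held by 17.8% of 32851 mouse promoters, and the NKX2-1 motif CTCAAG by 13.3%. The motif of GATA factors, AGATAA, is held by 9.99%, and that of CEBP factors, TTGCNNAA, by 9.56%. The motif of grainyhead factors, AACCNGTT, is held by 1.79%, that of ETS factors, CNGGAAGT, by 7.58%, and TATAAA, the core of a TATA box, by 12.4%. The Cebpa window holds 1 TATA match, at -30 to -25 from the start, the place of a classical TATA box. The Foxa1 window holds 1 forkhead match, at -141 to -135. The Elf3 window and the Foxa2 window shown hold no match to these letters. The next 2 Foxa2 starts hold 1 and 3 matches: ETS at the first, and TATA, NKX2-1 and GATA at the second, where the NKX2-1 and GATA letters overlap. A match in letters is a description and not a binding site.

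Genes that the factors are known to regulate were counted from lists made with earlier results of these data known, so the counts are descriptions. Of 12 known NKX2-1 target genes 11 were tested between organoids and tips, and 10 were higher in organoids and 0 lower, where 61.9% of all genes were called, with a median change of 5.32 (log2) beside -0.20 for all genes. Sftpc, which encodes surfactant protein C, had 49075.9 to 124839 TPM in organoids and 37.02 to 210.38 TPM in tips. Slc34a2, the phosphate transporter of type II cells, had 314.90 to 1120.58 TPM in organoids and 0.00 to 0.08 TPM in tips. Lamp3, a lamellar body protein, had 222.53 to 647.33 TPM in organoids and 0.30 to 1.28 TPM in tips. Surfactant protein D, Sftpd, had 12.79 to 1071.60 TPM in organoids and was listed at 0 in all 4 tips. The Nkx2-1 level itself differed by -0.08 in the same fit.

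Of 10 known GRHL2 targets 5 were higher and 2 lower in organoids than in tips, where 61.9% of all genes were called, and their median was 0.65. Cldn3, a tight junction claudin, changed by 1.51, Rab25, a recycling GTPase of epithelium, by 1.05, Ovol1, a zinc finger repressor, by 0.93 and Cdh1, encoding E-cadherin, by 0.88. The 2 lower ones, Epcam (-0.62) and the splicing factor Esrp1 (-0.57), were named after their values were seen. Of 12 factors of gut and liver fate 3 passed the filter, of which 1 was lower: Prox1, by -1.12, again named after its value was seen. In organoids 9 of the 12, Hnf4a, Cdx2 and Pdx1 among them, stayed under 1 TPM in every library.

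Culture day was tested across the 10 organoids, as a slope over the 21 days between day 11 and day 32, with start stage in the same fit. Of the 9 members 1 was called, Irx2, with a background of 9.64% of genes. Irx2 in organoids from E10.5 had 275.03 TPM at day 11, 230.13 TPM at day 18 and 147.73 TPM at day 32. From E13.5 it had 151.85 TPM at day 11, 144.18 TPM at day 19 and 135.29 TPM at day 30, and from E14 it had 179.75 TPM at day 11 and 144.85 TPM at day 24. Each later organoid was lower than the earlier one of its stage. The change over the range was -0.62 ± 0.16 (log2, SE, adjusted p = 0.0311 by limma), beside a median of -0.17 over all genes.

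The Irx2 call was lost under several settings. Of all calls for culture day 30.8% were higher at later days with deposited TPM and 59.7% after median-ratio rescaling, which brought the all-gene median to 0.00. Rescaled, Irx2 was at -0.42 (adjusted p = 0.170 by limma). Leaving out E10.5 at day 32 gave -0.49 (adjusted p = 0.287 by limma). Leaving out E10.5, E11.5 or E14 at day 11, or E13.5 at day 30, gave adjusted p of 0.0502 to 0.0667 by limma. No filter on TPM gave 0.0535.

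Cebpa followed no common course. In organoids from E10.5 it had 82.28 TPM at day 11, 203.26 TPM at day 18 and 63.97 TPM at day 32, while from E14 it had 162.63 TPM at day 11 and 85.91 TPM at day 24. From E13.5 it had 50.06 TPM at day 11, 94.56 TPM at day 19 and 81.05 TPM at day 30. The slope was -0.37 ± 0.46 (log2, SE, adjusted p = 0.672 by limma), the widest error of the members.

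The other 7 members were not called for culture day. The Foxa2 slope of -0.51 (adjusted p = 0.147 by limma) rested on single libraries. It was 0.04 without E10.5 at day 32 (adjusted p = 0.943 by limma) and -0.76 without E13.5 at day 30 (adjusted p = 0.0499 by limma). Elf3 from E13.5 had 17.47, 23.56 and 37.53 TPM at days 11, 19 and 30, but from E10.5 it had 28.93, 24.60 and 24.88 TPM at days 11, 18 and 32. Its slope was 0.42 ± 0.22 (log2, SE, adjusted p = 0.256 by limma). Of the known NKX2-1 targets 1 of 11 tested was called higher with culture day, Sftpd by 4.87, and of the GRHL2 targets 0 of 10 tested in either direction. Of all genes 9.64% were called.

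**Figure D3:**
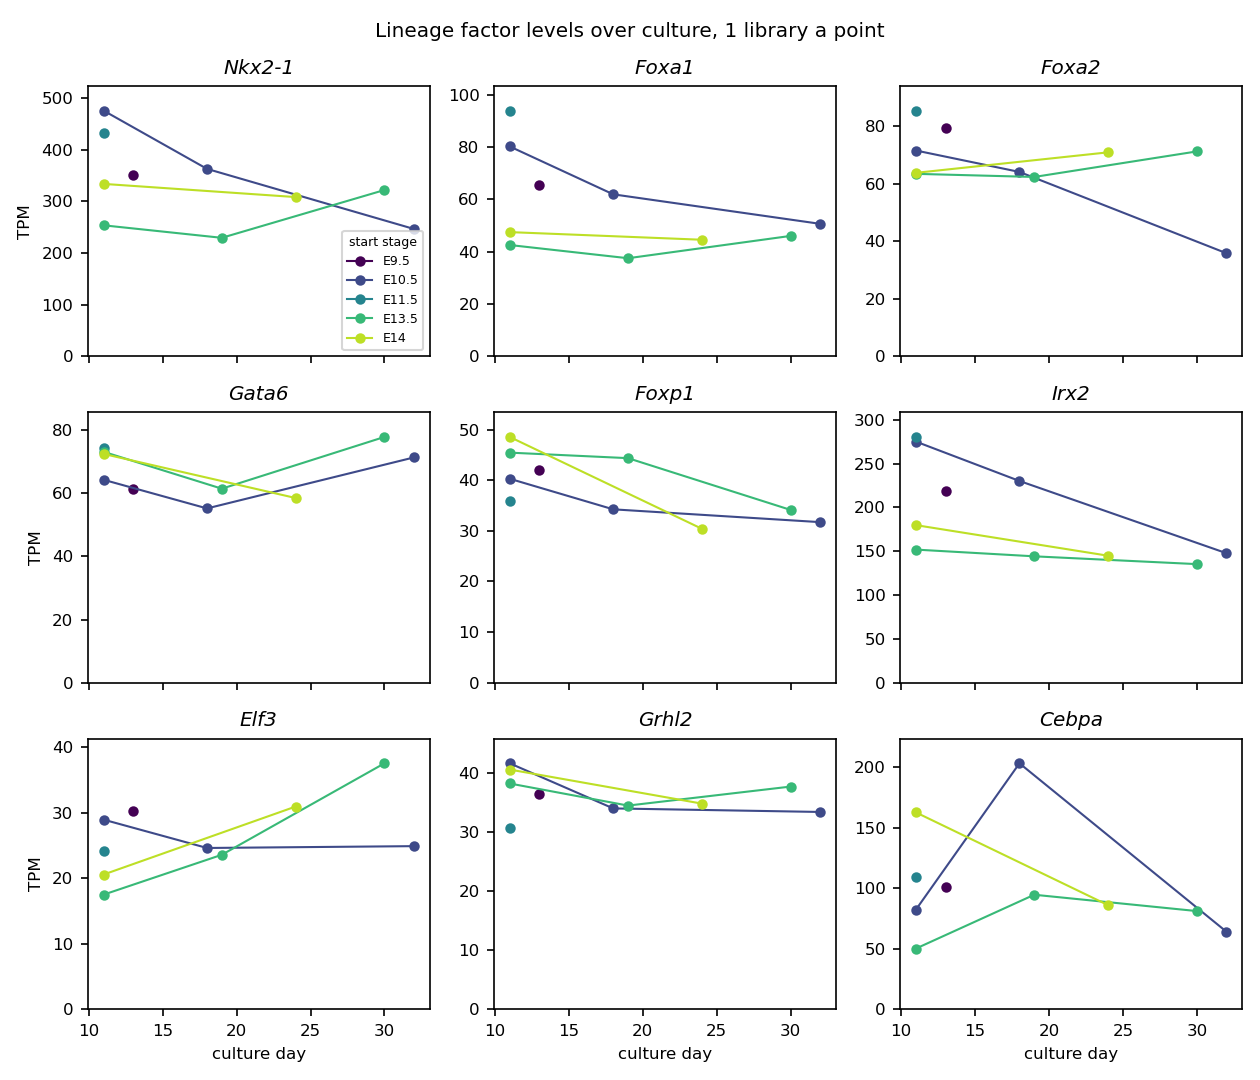
Levels of the 9 factors in TPM (vertical axes, starting at 0) against culture day (horizontal axis) in 10 organoids; each point is 1 library and lines join organoids of 1 start stage. Irx2 is lower at the later days within each start stage, from 275.03 TPM at day 11 to 147.73 TPM at day 32 for E10.5, while Cebpa is highest at day 18 for E10.5.

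Start stage, from E9.5 to E14, gave 0 called members by limma, and 0.0536% of all genes were called, or 9 genes. At an unadjusted p under 0.05 by limma there were 2 members, beside 1250 of 16779 genes. Foxa1 had 43.7 ± 3.9 TPM in organoids from E13.5 and E14 and 70.5 ± 16.9 TPM in organoids from E9.5 to E11.5 (SD, n = 5 each). The highest of the later start stages, 47.52 TPM, was below the lowest of the earlier ones, 50.68 TPM. Over the 4.5 days Foxa1 changed by -0.71 ± 0.21 (log2, SE, unadjusted p = 0.00504, adjusted p = 0.457 by limma). Irx2 had 151 ± 17 TPM in organoids from E13.5 and E14 and 230 ± 54 TPM in those from E9.5 to E11.5 (SD, n = 5 each), and the groups overlapped. Its change was -0.61 ± 0.16 (log2, SE, unadjusted p = 0.00236, adjusted p = 0.390 by limma). Neither passed adjustment over all genes.

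Embryonic day in the 4 tips gave 0 called members by limma, where 0.733% of all genes were called. At an unadjusted p under 0.05 by limma there was 1 member, beside 1664 of 16779 genes. Elf3 had 8.78, 9.27, 14.82 and 15.26 TPM from the youngest tip to the oldest, and its change over the 3 days was 0.85 ± 0.34 (log2, SE, adjusted p = 0.412 by limma). Cebpa had 18.52, 26.62, 10.48 and 10.15 TPM at the same stages, a change of -1.11 ± 0.71 (log2, SE, adjusted p = 0.729 by limma). Among NKX2-1 targets Sftpc was called higher with embryonic day, by 2.90. With 1 library a stage, the spread about the fitted lines stands in for replicates. Organoids and tips shared this fit, so the errors given here for the tips also measure spread among the 10 organoids.

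Pieces of organoids were compared by position, up against down and left against right, and by size. The 3 contrasts called 0 genes by limma (0.0% of 15017 each), with 663 genes at an unadjusted p under 0.05 for up against down, 463 for left against right and 799 for pieces named by both axes against pieces named by 1 axis. Foxa2 had 34.59, 43.61 and 56.92 TPM in the up pieces, against 65.45, 77.39 and 83.60 TPM in the down pieces. The highest up piece was below the lowest down piece. The difference of -0.75 ± 0.21 (log2, SE) had an unadjusted p of 0.00675 and an adjusted p of 1.00 by limma. Its neighbour in family, Foxa1, had 62.52, 42.10 and 42.10 TPM in the up pieces, against 44.45, 28.36 and 46.13 TPM in the down pieces, and these overlapped. Foxa2 was above Foxa1 in 7 of 8 pieces, the exception being the piece labelled up-half, with 34.59 TPM of Foxa2 and 62.52 TPM of Foxa1.

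Over the 8 pieces Nkx2-1 ran from 251.89 to 371.77 TPM beside 334.70 TPM in the intact organoid. Cebpa ran from 144.52 to 224.82 TPM, beside 153.54 TPM in the intact organoid, and Irx2 from 148.06 to 257.97 TPM, beside 293.93 TPM. Elf3 lay between 33.82 and 38.74 TPM in 7 pieces and at 22.76 TPM in the piece labelled down-half-left, beside 27.27 TPM in the intact organoid. That piece also had the lowest Foxa1 (28.36 TPM), Gata6 (33.86 TPM) and Grhl2 (22.38 TPM) and the highest Foxp1 (62.33 TPM) and Cebpa (224.82 TPM) of the 8.

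The omission groups ask which factors depended on FGF10, a growth factor made by lung mesenchyme, and on the undefined components MTG and VC. By limma 0 of the 9 members were called in each of the 3 omissions against ALL, where 1.83% of 14802 genes were called for ALL-FGF10, 0.513% for ALL-MTG and 0.804% for ALL-VC. At an unadjusted p under 0.05 by limma there were 4 members for ALL-FGF10, 3 for ALL-MTG and 2 for ALL-VC. Of all 14802 genes 2705, 1924 and 2533 passed at that threshold. These 3 comparisons share the ALL libraries. Between omissions 1 member was called, Foxa2 for ALL-FGF10 against ALL-MTG, where 3.52% of genes were called. In that contrast 5 members had an unadjusted p under 0.05 by limma, beside 2703 of all 14802 genes. For ALL-FGF10 against ALL-VC and ALL-MTG against ALL-VC 0 members were called by limma, with backgrounds of 3.82% and 0.547%. In these 2 contrasts 1 and 4 members had an unadjusted p under 0.05 by limma, beside 2960 and 1930 of all 14802 genes.

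Irx2 had 348.65 and 371.77 TPM in ALL-FGF10, against 196.44 and 137.14 TPM in ALL, 240.76 and 141.18 TPM in ALL-MTG and 153.36 and 163.96 TPM in ALL-VC. Both ALL-FGF10 libraries lay above all other libraries of the table. The difference from ALL was 1.13 ± 0.27 (log2, SE, 95% interval 0.51 to 1.75, adjusted p = 0.0938 by limma). From ALL-VC it was 1.18 ± 0.27 (log2, SE, adjusted p = 0.0573 by limma) and from ALL-MTG 0.96 ± 0.27 (log2, SE, adjusted p = 0.108 by limma), so Irx2 did not pass in any of the 3. It passed against ALL without ALL replicate 1 (1.39, adjusted p = 0.0470 by limma) or either ALL-MTG library (0.0359 and 0.0361). It passed against ALL-VC without either ALL or either ALL-MTG library (adjusted p of 0.0223 to 0.0446 by limma), after rescaling (0.0289) and with those 2 groups alone (0.00416). With the listing of short genes as a term the differences were 0.72 from ALL and 0.77 from ALL-VC (adjusted p = 1.00 for both by limma), and without ALL replicate 2 the difference from ALL was 0.87 (adjusted p = 0.238 by limma). Where 1 library of a group is left out, the other is assumed to vary like the remaining groups.

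Foxa2 had 82.49 and 88.85 TPM in ALL-FGF10, against 50.09 and 49.51 TPM in ALL-MTG, 73.49 and 76.30 TPM in ALL-VC and 64.85 and 51.05 TPM in ALL. ALL-FGF10 was the highest group and ALL-MTG the lowest, and neither overlapped another group. Between these the difference was 0.77 ± 0.16 (log2, SE, adjusted p = 0.0451 by limma). The call was lost without any 1 of the ALL-FGF10, ALL-MTG or ALL-VC libraries (adjusted p of 0.0898 to 0.418 by limma), without a TPM filter (0.0611), and with the listing of short genes as a term (1.00). From ALL, Foxa2 in ALL-FGF10 differed by 0.57 ± 0.16 (log2, SE, adjusted p = 0.132 by limma).

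Cebpa had 81.39 and 120.34 TPM in ALL-MTG, against 173.84 and 189.43 TPM in ALL. Values in ALL-FGF10 (161.89 and 162.52 TPM) and ALL-VC (137.51 and 150.15 TPM) fell between. The difference of ALL-MTG from ALL was -0.87 ± 0.19 (log2, SE, adjusted p = 0.120 by limma) and rested on single libraries. It was -1.15 without ALL-MTG replicate 2 (adjusted p = 0.0232 by limma) and -0.59 without ALL-MTG replicate 1 (adjusted p = 0.274 by limma). Between ALL-FGF10 and ALL-MTG the difference was 0.71 (adjusted p = 0.10 by limma), with 0.99 without ALL-MTG replicate 2 (adjusted p = 0.0252 by limma) and 0.43 without ALL-MTG replicate 1 (adjusted p = 0.220 by limma).

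Gata6 had 65.21 and 66.35 TPM in ALL-MTG, against 44.83 and 43.34 TPM in ALL, a difference of 0.57 ± 0.14 (log2, SE, adjusted p = 0.159 by limma). ALL-MTG lay above all 6 other libraries of this fit for Gata6, the next being 50.26 TPM in ALL-VC replicate 2. The unnumbered ALL library, outside the fit and normalized separately, had 65.31 TPM of Gata6, level with ALL-MTG. In the single 2C libraries Gata6 was also higher in 2C+MTG (74.69 TPM) than in 2C (45.23 TPM). Elf3 had 23.70 and 25.01 TPM in ALL-FGF10 and 23.90 and 23.62 TPM in ALL-MTG, against 37.31 and 32.25 TPM in ALL, differences of -0.49 and -0.53 (adjusted p = 0.174 and 0.224 by limma). Grhl2 had 35.96 and 32.37 TPM in ALL-VC, against 28.05 and 17.93 TPM in ALL. That difference, 0.58 ± 0.22 (log2, SE, adjusted p = 0.253 by limma), was 0.89 without ALL replicate 1 (adjusted p = 0.0352 by limma) and 0.27 without ALL replicate 2 (adjusted p = 0.511 by limma).

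Foxa1 had 60.05 and 56.09 TPM in ALL-FGF10 and 54.28 and 62.67 TPM in ALL-VC, against 51.90 and 33.75 TPM in ALL. The differences from ALL were 0.46 in ALL-FGF10 (adjusted p = 0.304 by limma) and 0.47 in ALL-VC (adjusted p = 0.313 by limma). Without ALL replicate 1 they were 0.76 and 0.77 (adjusted p = 0.0410 and 0.0397 by limma), and without ALL replicate 2 they were 0.16 and 0.17 (adjusted p = 0.659 and 0.693 by limma). Foxa2 in ALL-FGF10 differed from ALL by 0.73 without ALL replicate 1 (adjusted p = 0.0351 by limma) and by 0.40 without ALL replicate 2 (adjusted p = 0.226 by limma). Nkx2-1 had 359.40 and 351.29 TPM in ALL-FGF10, 261.93 and 277.06 TPM in ALL-MTG and 289.60 and 333.11 TPM in ALL-VC, against 310.88 and 247.04 TPM in ALL. Foxp1 overlapped ALL in each omission. The unnumbered ALL library was outside this fit and normalized separately. It lay above both numbered ALL libraries for Gata6 (65.31 TPM), Foxa1 (64.15 TPM), Grhl2 (31.44 TPM) and Cebpa (194.83 TPM). It lay below both for Foxa2 (46.17 TPM) and Elf3 (20.10 TPM). For Irx2 (192.25 TPM), Nkx2-1 (275.13 TPM) and Foxp1 (39.31 TPM) it lay between them.

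**Figure D4:**
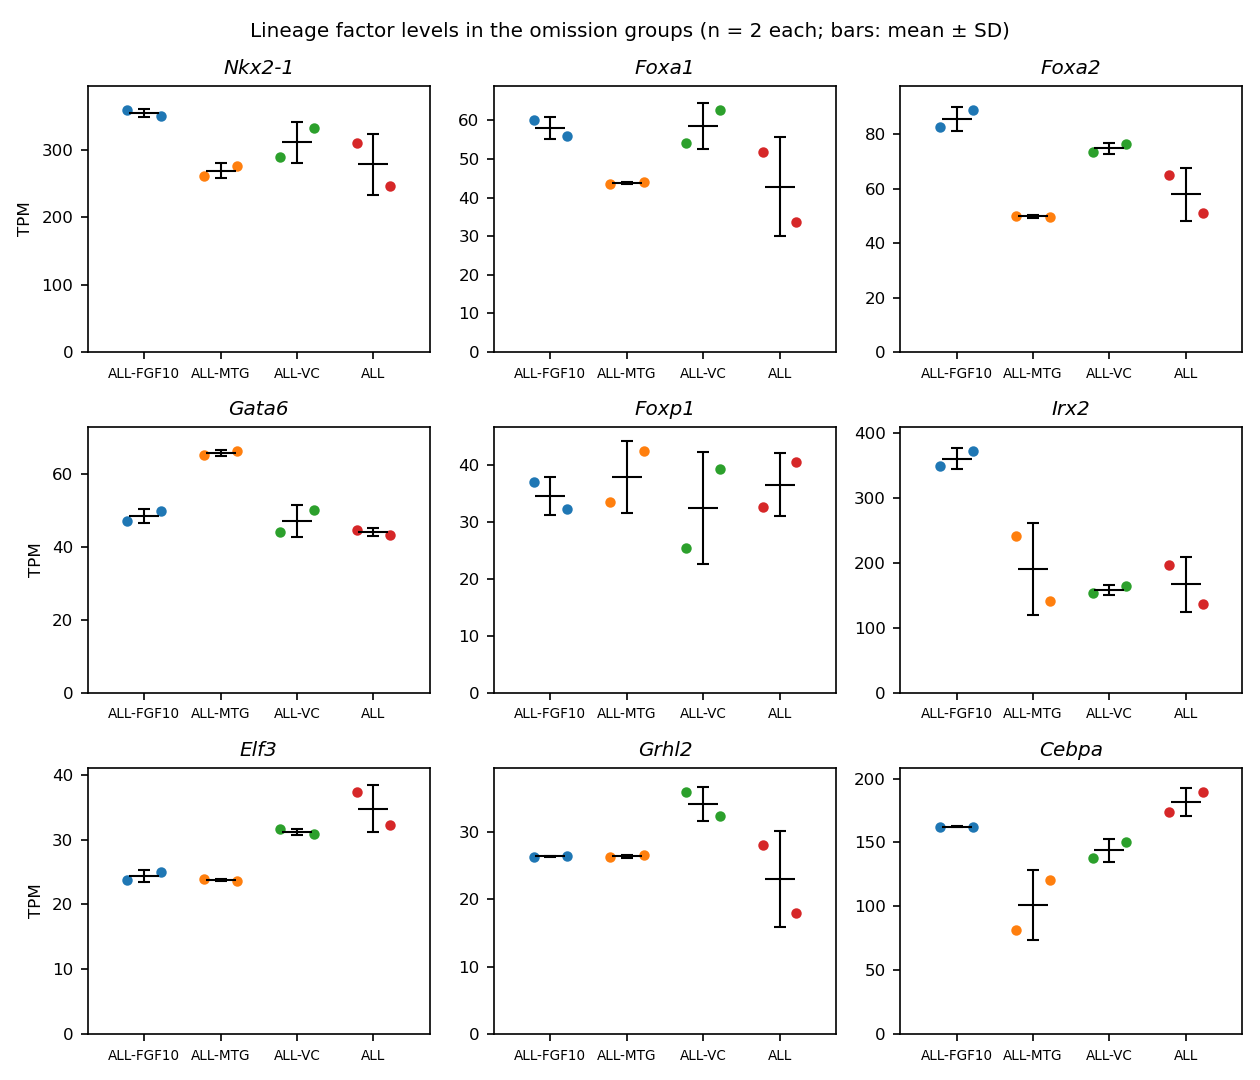
Levels of the 9 factors in TPM (vertical axes, starting at 0) in ALL-FGF10, ALL-MTG, ALL-VC and ALL; each point is 1 of 2 libraries and the bars give mean ± SD. Irx2 is highest in the ALL-FGF10 libraries (348.65 and 371.77 TPM), Gata6 highest and Cebpa lowest in the ALL-MTG libraries.

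Other features moved with these groups. Short genes were listed for 54 and 119 genes in ALL-FGF10 and 21 in ALL-MTG replicate 1, and for 0 in the other 5 libraries. Mesenchymal markers summed to 3.32 and 2.77 TPM in ALL-FGF10, 205.73 and 15.69 TPM in ALL-MTG and 2.22 and 3.81 TPM in ALL-VC, against 115.56 and 6.17 TPM in ALL. Epithelial markers summed to 1774.09 and 1686.46 TPM in ALL-FGF10, 3351.22 and 2948.65 TPM in ALL-MTG and 2533.51 and 2613.06 TPM in ALL-VC, against 2333.24 and 2541.07 TPM in ALL. For ALL-FGF10 against ALL-MTG, where Foxa2 was called, 5 of the 10 epithelial markers were lower and 0 higher, beside 3.52% of all genes called. The part of the mesenchymal and epithelial markers in these results was not tested.

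Among NKX2-1 targets 0 of 10 tested were called in any omission against ALL, where 0.513% to 1.83% of all genes were called. Against ALL-MTG, 4 were higher in ALL-FGF10 and 0 lower, where 3.52% of all genes were called. These 4 were Sftpa1 by 2.41, Slc34a2 by 2.20, Abca3 by 0.93 and Lamp3 by 0.80. Against ALL-VC, 3 were higher in ALL-FGF10 (Sftpa1 by 2.15, Slc34a2 by 2.08 and Abca3 by 0.73), where 3.82% of all genes were called. Among GRHL2 targets Cldn4, a tight junction claudin, had 10.03 to 12.39 TPM in ALL-FGF10 and 217.30 to 278.71 TPM in ALL-MTG, against 44.34 to 75.78 TPM in ALL. It was lower in ALL-FGF10 (-2.28, adjusted p = 0.00892 by limma) and higher in ALL-MTG (2.07, adjusted p = 0.0317 by limma). Grhl2 itself had 26.37 and 26.45 TPM in ALL-FGF10 and 26.28 and 26.61 TPM in ALL-MTG, against 28.05 and 17.93 TPM in ALL.

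LO cultures had 1 library each, so differences carry no test. A gene counts here as different if its log2(TPM + 1) values lie 1 or more apart and its higher value reaches 5 TPM. Only Cebpa among the 9 members passed that size for day 18 against day 8, where 15.1% of 14395 genes did. Its levels were 23.38 TPM at day 8, 29.85 TPM at day 11 and 207.69 TPM at day 18, a difference of 3.10 between the last and the first. Elf3 had 14.90, 22.20 and 23.78 TPM at these days and Nkx2-1 289.67, 282.00 and 389.79 TPM. Foxa1 (64.41, 62.71 and 65.22 TPM) and Foxp1 (45.47, 43.40 and 44.72 TPM) differed least. Between these days 36.6% of the counted genes were higher at day 18, or 56.2% after rescaling, and Cebpa passed in both. The Cebpa value of day 8 lay within the range of the tips, and the value of day 18 above all 10 organoids, although the tables were normalized separately.

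With DCI at day 11 only Cebpa passed as well, and 18.2% of all genes did. Cebpa had 241.67 TPM with DCI, against 29.85 TPM without, a difference of 2.98, and this was the highest Cebpa of all 40 libraries. Nkx2-1 had 429.52 TPM with DCI, against 282.00 TPM without (0.61), Foxa2 had 84.15 against 52.77 TPM (0.66), and Foxp1 had 67.92 against 43.40 TPM (0.63). Gata6 was at 55.05 TPM with DCI, against 87.83 TPM without (-0.66). Of 10 NKX2-1 targets 9 passed upward and 0 downward for DCI, as for day 18 against day 8, led for DCI by the club cell secretoglobin Scgb1a1, with 413.29 TPM and listed at 0 without DCI, by Sftpd (8.00) and by Slc34a2 (6.17). Mesothelial markers summed to 277.23 TPM with DCI and 6.30 TPM without, with 3 of 4 at 0 with DCI (Msln was the one listed), and mesenchymal markers to 77.15 TPM with DCI and 76.17 TPM without. The part of Msln-expressing cells in the result was not tested.

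The 2C additions were also 1 library each. Cebpa had 86.83 TPM in 2C+F10, 66.78 TPM in 2C+MTG, 140.06 TPM in 2C+VC and 194.83 TPM in the unnumbered ALL library, against 55.93 TPM in 2C. These pairs share the 2C library. Cebpa passed the size in 2C+VC (1.31, where 6.73% of 14452 genes passed) and in ALL (1.78, where 8.48% passed). Elf3 had 62.90, 25.50, 34.52 and 20.10 TPM in these 4 libraries, against 51.47 TPM in 2C, and passed downward in ALL (-1.31). In 2C+MTG its difference of -0.99 lay just short of the size, where 4.97% of genes passed and 0 members. In 2C+F10 0 members passed, with 3.78% of genes. In ALL, 38.6% of counted genes were higher than in 2C, or 60.9% after rescaling.

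Gata6 had 74.69 TPM in 2C+MTG and 65.31 TPM in the unnumbered ALL library, against 45.23 TPM in 2C, differences of 0.71 and 0.52. Grhl2 had 38.01 TPM in 2C+F10, 39.47 TPM in 2C+MTG, 31.72 TPM in 2C+VC and 31.44 TPM in ALL, against 50.03 TPM in 2C, the highest of the 5. Irx2 differed by no more than 0.33 in any of these libraries. Of 11 NKX2-1 targets, 11 passed upward in 2C+VC and 7 in 2C+F10, while in 2C+MTG 1 passed upward and 5 downward, and in ALL 8 upward and 2 downward. Of all genes 6.73% passed in 2C+VC, 3.78% in 2C+F10, 4.97% in 2C+MTG and 8.48% in ALL. Mesenchymal markers summed to 122.75 TPM in 2C+F10, 3.00 TPM in 2C+MTG, 29.11 TPM in 2C+VC and 5.04 TPM in ALL, against 14.68 TPM in 2C, and their part was not tested.

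**Figure D5:**
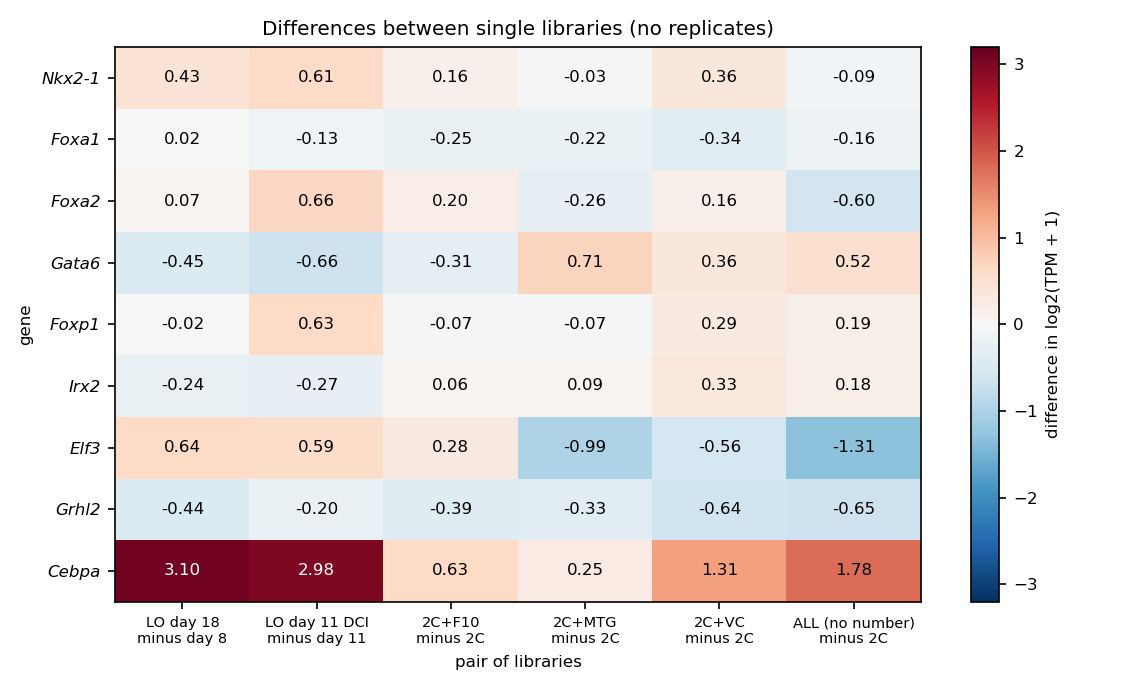
Differences of the 9 factors in log2(TPM + 1) (colour and printed values; rows are genes, columns are pairs of single libraries). Cebpa stands out at 3.10 for LO day 18 against day 8 and 2.98 for day 11 with DCI against day 11, and Elf3 is lowest in ALL against 2C, at -1.31.

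The genes most like each member were sought by the root mean square (RMS) difference of log2(TPM + 1) over the 40 libraries, after each gene's mean in each table was subtracted, among 10010 candidates. For Cebpa these were Abca3, a lipid transporter of lamellar bodies, with an RMS difference of 0.32, and Acss2, an acetyl-CoA synthetase, with 0.35, where Cebpa itself varied by 0.95. Abca3 is also in the list of NKX2-1 targets above. For Elf3 they were Nfkb2 (0.27) and Rab25 (0.28), where Elf3 varied by 0.45. For Foxa1 they were Dvl2 (0.19) and Foxo4 (0.21), where Foxa1 varied by 0.38. For Foxa2 they were Hdgf (0.22) and Tmem189 (0.23), where Foxa2 varied by 0.41. The closest genes were Casd1 (0.22) to Irx2, Nfyc (0.21) to Foxp1, Nf1 (0.18) to Gata6, Cdip1 (0.15) to Nkx2-1 and Sp1 (0.13) to Grhl2. For these 5 the member's own variation was 0.22 to 0.35. The likeness is a description over libraries that share tables and groups.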

How the data were processed

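TPM values per gene were deposited by the authors as 5 tables, made with RSEM and Bowtie2 on mm10 per the submitters' processing notes, which give no versions. Per the labels' protocols, RNA was extracted with TRIzol and libraries were made with an mRNA kit and sequenced on a NovaSeq X Plus. TPM keeps no sequencing depth, so counting precision is unknown and limited by the number of libraries. Titles tied 40 value columns to libraries, 1 further column was not used, and no libraries were identical. Values were taken as log2(TPM + 1), with genes kept at 1 TPM or more in at least 2 libraries of a fit.

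Differences were tested with limma 3.58.1 in R 4.3.3 (lmFit, eBayes with trend, two-sided), adjusted by Benjamini-Hochberg over all genes of a contrast and called under 0.05. Organoids and tips were compared as 2 groups. Slopes for culture day, start stage and embryonic day came from 1 fit of the same 14 libraries and were multiplied by ranges of 21, 4.5 and 3 days. The 8 numbered ALL libraries shared 1 fit, and the pieces another with terms for both axes and size. Scripts were tested on simulated data. Coordinates are GENCODE M21 on GRCm38, to which all 55260 genes matched. Figures used Python 3.11.15 with matplotlib 3.10.9.

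The members and the gene lists were chosen with earlier results of these data known. Besides the 9 members, the rule named up to 4 called genes per list and contrast with the largest change, and the 2 genes most like each member. Replicate numbers were tried as pairs: correlations of deviations ran from -0.07 to 0.11, so they do not pair the samples. Alternatives were a pseudocount of 0.1 TPM, no filter, median-ratio rescaling, leaving out each library, only the organoids grown for 11 to 13 days, a replicate block, the compared groups alone and the listing of genes of 100 to 150 nt as a term. Results of 1 gene of the GRHL2 target list are not reported here.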

Additional observations from a re-analysis of the deposited data

Results flagged for a closer look

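Outlying libraries were looked for among the 9 members in tips, organoids and pieces, 27 sets of values, of which 3 held a library far from the rest of its group; chance flags about 1 in 20 sets. Foxa2 was at 35.81 TPM in the E10.5 organoid of day 32, below the other 9 organoids (62.30 to 85.35 TPM). Irx2 was at 148.06 TPM in the piece labelled up-half-right, below the other 7 pieces (208.79 to 257.97 TPM). Elf3 was at 22.76 TPM in the piece labelled down-half-left, below the other 7 pieces (33.82 to 38.74 TPM).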

How the results depend on the processing

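In organoids against tips, Cebpa, Elf3, Foxa1, Foxa2 and Foxp1 were called in the same direction under all 18 alternatives, Grhl2 under 17 and Gata6 under 7, and rescaling turned Gata6 to 0.0796. Over all comparisons, members gained a call under an alternative 18 times and lost one 27 times in the same direction, and Gata6 lost its call once more where rescaling turned its sign; beyond settings that only shrink the data, the cause was not tested. TPM keeps no depth, so counting error is not known.

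Without the TPM filter, genes called were 3 for start stage, 335 for embryonic day in tips, 7 for ALL-MTG against ALL, 27 for ALL-VC against ALL and 22 for ALL-MTG against ALL-VC, beside 9, 123, 76, 119 and 81. The members called became 0 for culture day and 0 for ALL-FGF10 against ALL-MTG, beside 1 each. With a pseudocount of 0.1 TPM, 25 genes were called for embryonic day and 177 for ALL-FGF10 against ALL (271 before), and 1 member passed in 2C+MTG. Rescaling called 228 genes for ALL-VC against ALL, 0 members for culture day and 1 for ALL-FGF10 against ALL-VC.

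Replicate numbers do not pair the samples. The replicate block called 143 genes when ALL-FGF10 was set against ALL, 48 with ALL-MTG set against ALL, 68 with ALL-VC set against ALL, 391 for ALL-FGF10 against ALL-MTG, 428 for ALL-FGF10 against ALL-VC and 45 for ALL-MTG against ALL-VC. Under the block the members called for ALL-FGF10 against ALL-MTG were 0 (Foxa2, adjusted p = 0.0704 by limma).

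With the listing of short genes as a term, genes called in the same order were 12, 7, 28, 16, 13 and 5, beside 271, 76, 119, 521, 565 and 81, and 0 members were called for ALL-FGF10 against ALL-MTG. With only the 2 groups compared they were 166, 11, 51 and, for ALL-FGF10 against ALL-VC, 2158 with 1 member, and for ALL-MTG against ALL-VC 18.

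Leaving out 1 library gave 9563 to 10400 genes and 6 to 8 members for organoids against tips, 430 to 1825 genes and 0 to 1 members for culture day, 2 to 10 genes for start stage and 14 to 120 for embryonic day. For the pieces it gave 0 to 1 genes (up against down), 0 to 1 (left against right) and 0 to 6 (by size). It gave 9 to 1149 genes and 0 to 3 members for ALL-FGF10 against ALL, 18 to 191 and 0 to 1 for ALL-MTG against ALL, and 8 to 1309 and 0 to 2 for ALL-VC against ALL. Between omissions it gave 19 to 838 genes and 0 to 1 members for ALL-FGF10 against ALL-MTG, 15 to 966 and 0 to 1 for ALL-FGF10 against ALL-VC, and 6 to 204 genes for ALL-MTG against ALL-VC.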

Other observations

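Of 29 paralogues of the 9 factors 19 were tested between organoids and tips, of which 5 were higher and 8 lower, where 61.9% of all genes were called. Their median was -0.33 (log2), beside -0.41 for the 9 factors and -0.20 for all genes. Ehf and Elf5, epithelial ETS factors like Elf3, had 9.78 to 99.13 TPM and 40.49 to 131.42 TPM in organoids, against 0.31 to 2.22 TPM and 8.08 to 12.82 TPM in tips. Their changes were 4.43 (adjusted p = 3.48e-06 by limma) and 3.00 (adjusted p = 3.01e-08 by limma). Gata5, a relative of Gata6, had 1.03 to 7.75 TPM in organoids, against 28.92 to 39.03 TPM in tips (-3.12, adjusted p = 1.42e-07 by limma). Nkx2-6, a relative of Nkx2-1, was listed at 0 in all 10 organoids, against 0.63 to 37.98 TPM in tips.

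With culture day Ehf changed by 2.34 and Cebpd, a relative of Cebpa, by 1.65, while Foxp2 changed by -1.23 and Foxp4 by -0.71, 4 of 19 paralogues called by limma, where 9.64% of all genes were called. Elf5 had 161.01 to 166.28 TPM in ALL-FGF10, against 19.60 to 47.68 TPM in ALL-VC (2.38, adjusted p = 0.0305 by limma). In the LO cultures Elf5 had 130.11 TPM at day 18, against 5.05 TPM at day 8, and Foxp2 had 15.09 TPM at day 18, against 68.06 TPM at day 8, with no test.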
